A study of Mus musculus with 45 samples.

Results

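The Platr genes (pluripotency-associated transcripts) are a set of mouse genes, most of them annotated as long non-coding RNAs, that were named for expression tied to the pluripotent state. The accessible regions around their starts were followed by ATACseq while SOX2, OCT4 or NANOG was degraded in mouse embryonic stem cells (mESC). A peak was taken as a Platr peak where its summit lay within 10 kb of the annotated 5′ end of a gene whose name starts with Platr (GENCODE vM21, mm10). This rule gave 120 of the 184964 peaks. Of these, 16 were start peaks, with the summit within 500 bp of the 5′ end, and the other 104 are called nearby peaks. GENCODE holds 30 Platr genes, 29 of them with at least 1 peak in the window. Platr2 had none, and its nearest peak lay 19895 bp away. Positions below are the distance of a peak's summit from the 5′ end in bp, negative upstream. Of the family, Platr17 and Platr25 are annotated as protein coding.

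In the SOX2-FKBP and NANOG-FKBP lines (both E14 mESC) and the OCT4-FKBP line (V6.5 mESC, made in another laboratory), the factor carries the FKBP F36V domain. Cells given the small molecule dTAG-13 lose any protein fused to this domain by proteasomal degradation. All cells grew without serum in 2i/LIF medium, which holds mESC in the naive state, and were treated with 500 nM dTAG-13. The controls (NT) carried the same tag and received DMSO. SOX2-FKBP cells were taken at NT, 0.5, 1, 2, 6 and 24 h with 2 libraries each, OCT4-FKBP cells at NT, 2, 6 and 24 h with 2 libraries each, and NANOG-FKBP cells at NT with 2 libraries and at 2, 6 and 24 h with 3 each. Tagged cells were picked as homozygous clones. Factor, parental line and origin cannot be told apart between OCT4-FKBP and the other lines. The study's methods mention a further, independent SOX2 clone, and the labels do not say which libraries, if any, came from it, so the 2 libraries of a SOX2 time may be different clones. The labels do not say whether replicates came from separate cultures, so p-values measure the spread between these libraries, which may be technical.

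The 31 libraries held 1817191 to 17575631 fragment counts in peaks (median 9496229). The 3 treated NANOG-FKBP libraries numbered 2 were the shallowest, with 1817191 to 3272168 counts, and every other library had at least 4247580. Of 25 genes of the pluripotency network, 19 had a start peak, with a median NT count in SOX2-FKBP cells of 161 per kb of peak. In ATACseq the Tn5 transposase inserts into open DNA, so the fragment count of a peak measures its accessibility. A lower count in a bulk library does not tell fewer cells with an open site from less opening per cell.

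SOX2 and OCT4 are DNA-binding factors that often sit side by side on a joint motif in mESC enhancers, where SOX2 reads a CATTGT-like element and OCT4 an octamer. NANOG is a homeodomain factor that shares many of these enhancers. Long non-coding genes of stem cells commonly start at or near such elements, so an open region at their start can serve as promoter, as enhancer or as both. The Platr genes have no shared protein product or sequence family. They were grouped by expression, and Platr14 is among those with a described effect on mESC differentiation.

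The 300 bases around the summit are shown for 4 Platr peaks that carry the main patterns: 1 start peak and 1 nearby peak that lost accessibility within 0.5 h of SOX2 depletion, and 2 nearby peaks that lost most of their accessibility within 2 h of OCT4 depletion. They were read from the reference genome of build mm10, on the strand of the Platr gene. Capitals mark exact matches to the SOX (CATTGT), POU octamer (ATGCAAAT), SOX-POU composite core (TTGTNATGC), ESRRB (TCAAGGTC) and KLF (GGGNGTGG) letters on either strand, and matches to the octamer or the composite core with up to 1 mismatch.
Platr11 start peak at -195 bp, chr9:118406144-118406443, minus strand: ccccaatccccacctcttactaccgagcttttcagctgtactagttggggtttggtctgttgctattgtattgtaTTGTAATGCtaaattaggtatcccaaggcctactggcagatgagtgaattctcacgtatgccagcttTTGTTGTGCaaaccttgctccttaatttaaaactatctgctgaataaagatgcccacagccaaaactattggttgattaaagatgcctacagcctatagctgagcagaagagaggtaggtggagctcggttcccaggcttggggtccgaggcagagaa
Platr28 nearby peak at -5875 bp, chr7:107236997-107237296, plus strand: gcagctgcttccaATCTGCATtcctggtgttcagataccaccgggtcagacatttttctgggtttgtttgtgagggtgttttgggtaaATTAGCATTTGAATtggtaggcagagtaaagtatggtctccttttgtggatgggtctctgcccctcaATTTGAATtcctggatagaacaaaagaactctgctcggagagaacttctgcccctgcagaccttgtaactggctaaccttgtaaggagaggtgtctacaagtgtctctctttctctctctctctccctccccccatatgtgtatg
Platr10 nearby peak at 7298 bp, chr3:75648283-75648582, minus strand: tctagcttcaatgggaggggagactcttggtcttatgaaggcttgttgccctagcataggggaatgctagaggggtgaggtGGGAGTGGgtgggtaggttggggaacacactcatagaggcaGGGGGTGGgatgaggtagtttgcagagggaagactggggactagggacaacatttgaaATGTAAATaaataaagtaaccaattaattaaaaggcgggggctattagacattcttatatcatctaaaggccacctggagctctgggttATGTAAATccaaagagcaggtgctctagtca
Platr31 nearby peak at 3414 bp, chr6:127103561-127103860, plus strand: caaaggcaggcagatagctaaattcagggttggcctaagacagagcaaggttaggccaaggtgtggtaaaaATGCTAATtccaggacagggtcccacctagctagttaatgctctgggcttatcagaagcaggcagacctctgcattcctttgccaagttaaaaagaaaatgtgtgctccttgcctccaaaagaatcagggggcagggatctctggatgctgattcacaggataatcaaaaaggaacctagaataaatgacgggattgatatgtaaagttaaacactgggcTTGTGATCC
The Platr11 start peak held an exact composite core at base 76 of the printed run, counted from 1 at its 5′ end, and a second match with 1 mismatch at base 143. The Platr28 peak held no exact match and 4 octamer matches with 1 mismatch. The Platr10 peak held KLF letters at bases 82 and 123 and octamers with 1 mismatch at bases 181 and 270. The Platr31 peak held an octamer with 1 mismatch at base 72 and a composite core with 1 mismatch at base 292.

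**Figure D1:**
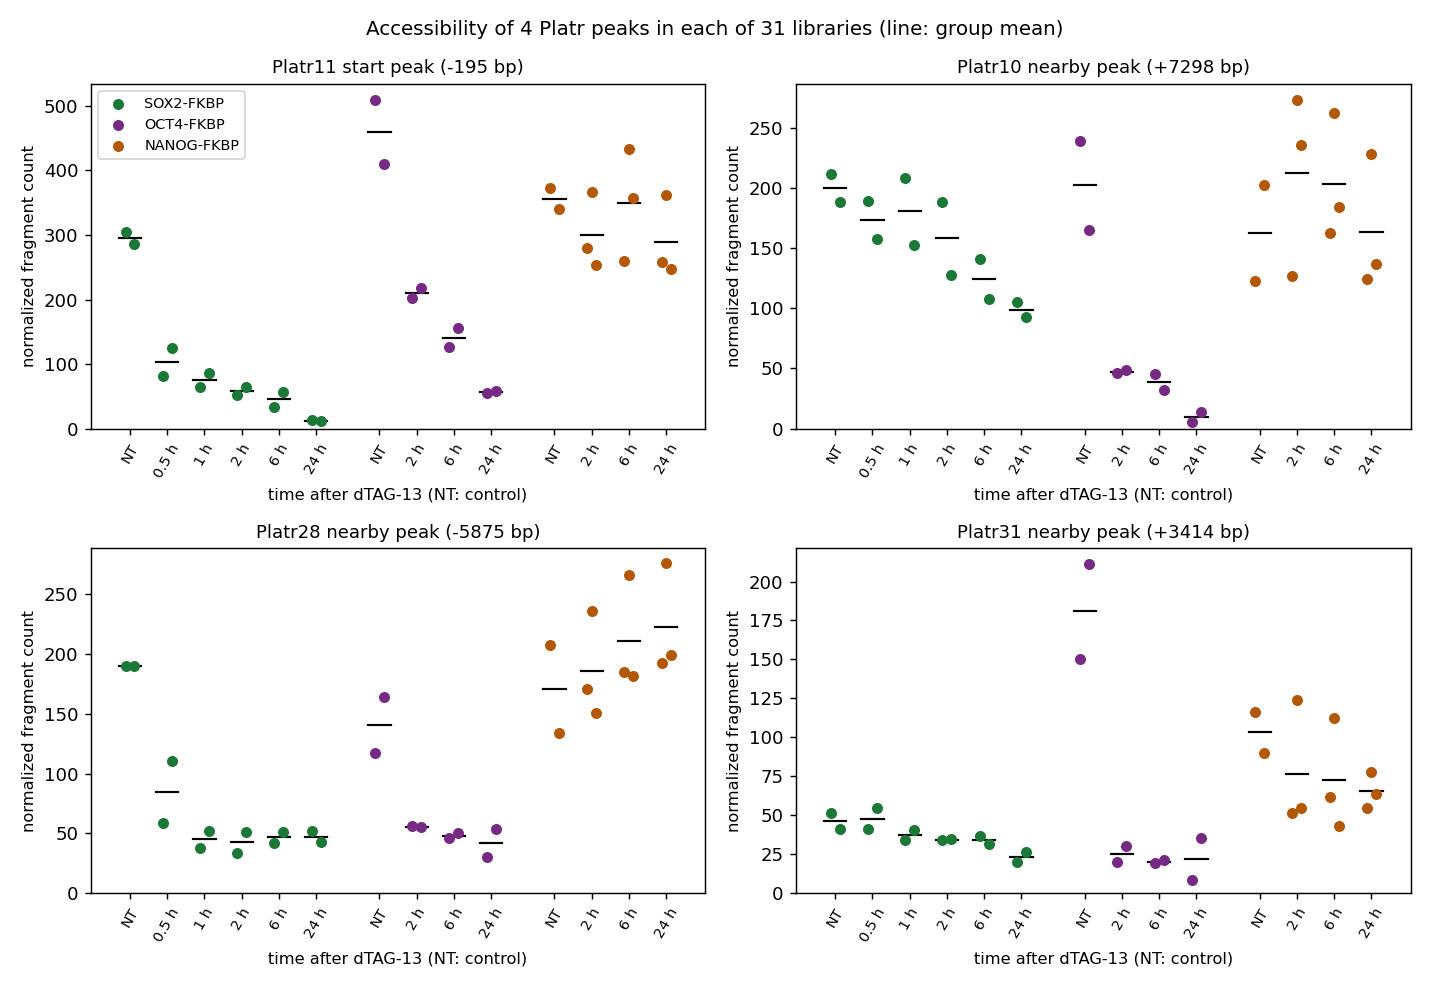
Normalized fragment counts (vertical axes, from 0) of the 4 printed peaks in each of the 31 libraries, by line and time after dTAG-13, with a horizontal line at each group mean. The Platr11 start peak and the Platr28 peak fell from the first SOX2 time on, while the Platr10 and Platr31 peaks fell most after OCT4 depletion, and none of the 4 was called in NANOG-FKBP cells, where the groups overlapped or the change did not pass.

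At their starts, the level of Platr genes in NT cells was near that of protein-coding genes. Median NT counts in SOX2-FKBP cells were 111 per kb of peak for the 16 Platr start peaks, 103 for 12334 start peaks of protein-coding genes and 61.0 for 3151 start peaks of other long non-coding genes. The nearby Platr peaks had a median of 68.9 per kb, against 38.4 for all peaks. Of the start peaks, 12 had their summit between genes and 4 in an exon. Of the nearby peaks, 54 lay between genes, 35 in an intron and 15 in an exon of any gene. The start peaks of Platr23, Platr20 and Platr25 also lay at another gene's start, at 115 bp from Zfp281, 54 bp from Gm12569 and 47 bp from Mir713.

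SOX2 depletion closed a subset of Platr peaks within 0.5 h and more at each later time. A peak is called lost or gained where its count was lower or higher than in NT with an adjusted p under 0.05 (edgeR's quasi-likelihood test, adjusted by Benjamini and Hochberg's method over the whole table). Of the 120 Platr peaks, 116 passed the filter on low counts in the SOX2 fit. At 0.5 h, 4 of them were lost, beside 3.14% of all peaks tested. At 1 h, 8 were lost beside 5.46%. At 2 h, 15 were lost (12.9%) beside 7.28%. At 6 h, 18 were lost (15.5%) beside 9.28%, and at 24 h, 27 were lost (23.3%) beside 14.1%. The shares at 0.5 and 1 h were near the background, and those from 2 h on were above it. Platr peaks also held more fragments than the average peak, and the part of this in their share of calls was not tested. The median log2 fold change of Platr peaks was -0.06, -0.11, -0.07, -0.04 and -0.23 at 0.5, 1, 2, 6 and 24 h, where that of all peaks was -0.01, 0.00, 0.01, 0.04 and 0.04.

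Gains were fewer. No Platr peak was gained at 0.5, 1 or 2 h by edgeR or by DESeq2, where 0.158%, 0.889% and 1.46% of all peaks tested were, and 2, 4 and 5 had an unadjusted p under 0.05 in that direction. At 6 h, 3 were gained beside 2.66% of all peaks. At 24 h, 4 were gained (3.45%) beside 9.17%. All SOX2 times share their 2 NT libraries. Without replicate 1 of 0.5 h, 1 Platr peak was lost at 0.5 h, without replicate 1 of 1 h, 4 were lost at 1 h, and without replicate 2 of 2 h, 9 were lost at 2 h.

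In all, 29 Platr peaks at 17 genes were lost at 1 or more SOX2 times, 6 of them start peaks. Among the 155681 peaks tested for both SOX2 and OCT4, 24135 were lost at 1 or more SOX2 times. The first time at which a Platr peak was lost was 0.5 h for 4 peaks, 1 h for 4, 2 h for 7, 6 h for 5 and 24 h for 9. Of the 20 Platr peaks first lost before 24 h, the last time, 17 were called at every later time, which was not counted over all peaks. The 3 exceptions were the Platr10 start peak and the nearby peaks of Platr31 at 6681 bp and Platr9 at -6143 bp.

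The Platr11 start peak had the largest fall among Platr peaks at 0.5, 2, 6 and 24 h of SOX2 depletion. It lies on chr9:118404791-118406896 with its summit between genes. Its normalized counts were 304 and 286 in the NT libraries, 82 and 125 at 0.5 h, 65.2 and 85.3 at 1 h, 51.9 and 64.7 at 2 h, 34 and 56.7 at 6 h, and 12.6 and 12.3 at 24 h. Treated and NT libraries did not overlap at any time, and the group mean was lower at each successive time. The log2 fold change went from -1.56 ± 0.20 (SE, edgeR adjusted p = 4.21e-06) at 0.5 h to -2.33 ± 0.20 (edgeR adjusted p = 1.65e-10) at 2 h and -4.56 ± 0.27 (edgeR adjusted p = 8.32e-15) at 24 h, when 4.22% of the NT level remained. The call held at every time without any 1 of the libraries compared.

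The annotations disagree on where Platr11 starts. RefSeq places the 5′ end 41078 bp away from the GENCODE one, so this peak is a start peak only by GENCODE. RefSeq names 18 of the 30 genes, and 13 of those starts lie within 500 bp of GENCODE's. By RefSeq, the nearby peaks at 4352 bp of Platr29 and -2471 bp of Platr3 would be start peaks and the peak at 17 bp of Platr25 would not.

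Platr9, Platr26 and Platr8 lost part of their start accessibility and were first called after 0.5 h. The Platr9 start peak had 234 and 207 counts in NT, 175 and 176 at 0.5 h, 114 and 141 at 1 h, 126 and 127 at 2 h, and 85.4 and 90.7 at 24 h. The Platr26 start peak had 311 and 280 in NT, 212 and 216 at 0.5 h, 191 and 171 at 2 h, and 118 and 120 at 24 h. The Platr8 start peak had 132 and 108 in NT, 70.7 and 81.2 at 2 h and 44.6 and 47.2 at 24 h. What remained of the NT level at 24 h was similar in these 3 peaks, at 39.9% for Platr9, 40.3% for Platr26 and 38.3% for Platr8. Their log2 fold changes at 24 h were -1.33 ± 0.17, -1.31 ± 0.16 and -1.40 ± 0.24 (SE), and these 3 calls held without any 1 library. Platr9 was first lost at 1 h (57.8% of NT, edgeR adjusted p = 0.00123), a call that did not hold without replicate 1 of NT or of 1 h. Platr26 was called from 1 h on (69.9%, edgeR adjusted p = 0.0389), a call lost whichever of the 4 libraries was left out, and at 2 h (61.3%, edgeR adjusted p = 0.00123) not without NT replicate 1. Platr8 was called from 6 h on (edgeR adjusted p = 0.0375, lost whichever of the 4 libraries was left out), and at 2 h it stood at 63.4% of NT (edgeR adjusted p = 0.053). With a term for the replicate number in the fit (the replicate block), a pairing that is not established, it was called at 2 h (edgeR adjusted p = 0.00141).

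Platr10 and Platr12 changed less. The Platr10 start peak had 107 and 136 counts in NT, 75.5 and 83.7 at 2 h and 62.1 and 68 at 24 h. It passed the threshold at 2 h (65.6% of NT, edgeR adjusted p = 0.0414) and 24 h (53.6%, edgeR adjusted p = 0.000727). The 2 h call held in 1 of the 4 refits without a library, being lost without NT replicate 2 or either 2 h library. The Platr12 start peak had 111 and 109 in NT and 53.4 and 90.7 at 24 h (edgeR adjusted p = 0.0337, held in 1 of 4 refits, without 24 h replicate 2). The Platr27 start peak had 146 and 143 in NT and 92.2 and 114 at 24 h, just outside the threshold (edgeR adjusted p = 0.0507). It was inside it with the replicate block (edgeR adjusted p = 0.0109).

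The other Platr start peaks were not called at any SOX2 time. Platr1, Platr4, Platr20, Platr21 and Platr23 stayed between 94.8% and 120% of NT from 0.5 to 24 h in all but the 6 h mean of Platr1 (85.3%) and its 1 h mean (91.2%). Platr14, with 62.5 and 60.9 counts in NT, had 51.4 and 64.2 at 24 h. The start peak of Platr16 had 221 and 207 in NT and 147 and 195 at 24 h, and that of Platr25 had 151 and 149 in NT and 159 and 188 at 24 h. The Platr28 start peak was almost closed, with 18.2 and 9.91 counts in NT, and its counts allow no more than a large change to be seen.

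No Platr start peak was gained at any SOX2 time by edgeR or DESeq2, and none had an unadjusted p under 0.05 for a gain. At 24 h, gains were called at 25.7% of the 12149 protein-coding start peaks tested and 16.7% of the 2958 other long non-coding ones. Over all peaks tested the share was 9.17%. With a start window of 1 kb, 9.52% of Platr start peaks were gained at 6 and 24 h. Around the summit the median GC share was 48.8% for Platr, 64% for protein-coding and 56% for other long non-coding start peaks. Its part in the shares gained was not tested. The median log2 fold change at 24 h was -0.41 for the 16 Platr start peaks, 0.34 for protein-coding and 0.25 for other long non-coding start peaks. Losses at 24 h were called at 14.1% of all peaks tested. Among the start peaks of 19 pluripotency genes, 6 were lost and 1 gained at 24 h, with a median of -0.20. The lost ones included Lefty1, an antagonist of Nodal signalling (-2.15), Tcl1 (-1.01), Fbxo15 (-0.79) and Nanog itself (-0.75). Without the 3 Platr start peaks that lie at another gene's start, 6 of 13 were lost at 24 h and none was gained.

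**Figure D2:**
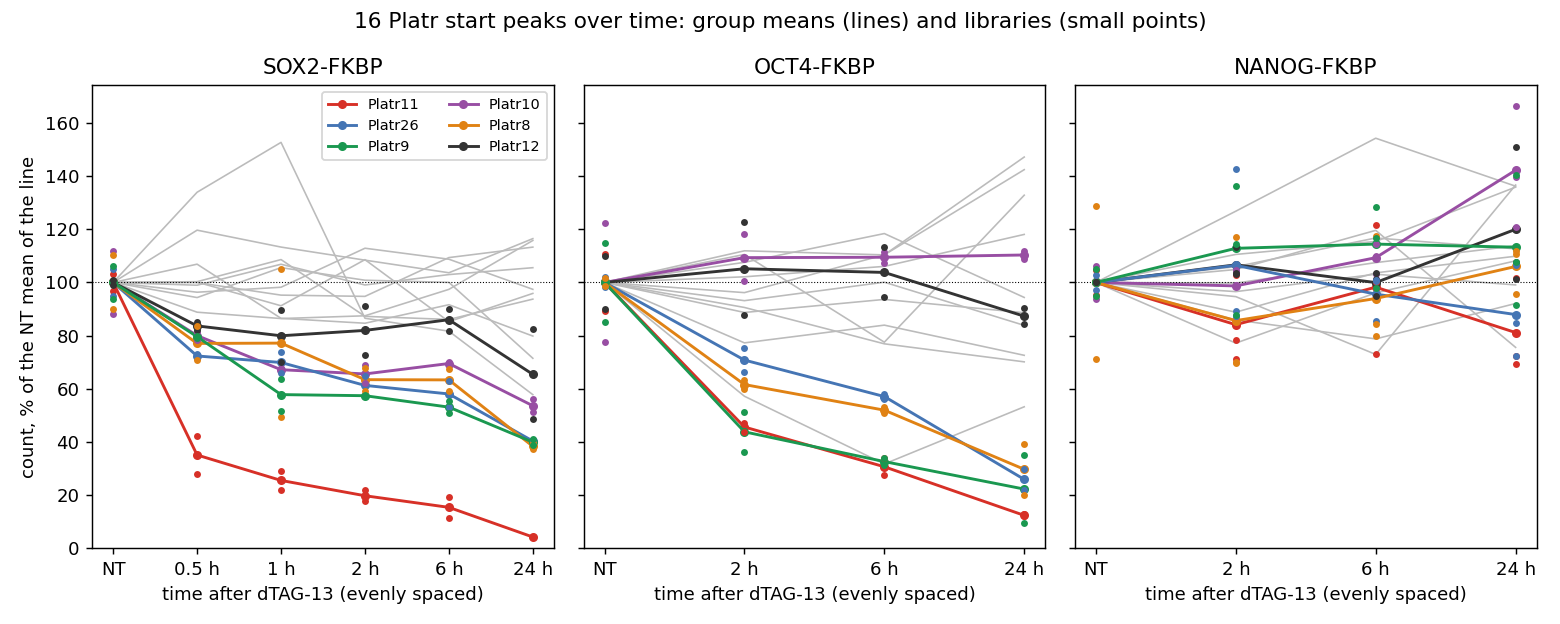
Counts of the 16 Platr start peaks as a percent of the NT mean of their line (vertical axis, from 0) by time after dTAG-13 (evenly spaced), for the 3 lines. Lines are group means, small points are libraries, and the 6 coloured genes are those lost at some SOX2 time. Platr11 reached 4.22% of NT at 24 h of SOX2 depletion and 12.4% with OCT4, while the NANOG-FKBP means of the coloured genes stayed above 80%.

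Among nearby peaks, 8 met the rule for naming at 2 h of SOX2 depletion. The rule asked for an adjusted p under 0.05 and a mean of 50 or more in the group with the higher level. It also asked for every treated library to lie below the NT mean, or above it for a rise. The largest fall was at the peak of Platr28 at -5875 bp, between genes. It had 190 and 190 counts in NT, 58.8 and 111 at 0.5 h, 38.1 and 52.4 at 1 h, 34 and 51.4 at 2 h and 52.4 and 42.5 at 24 h. It changed little after 1 h, from 23.8% of NT at that time to 22.5% at 2 h and 25% by 24 h (log2 fold change at 2 h -2.14 ± 0.23 SE, edgeR adjusted p = 9.38e-09). The start peak of the same gene is the nearly closed one above.

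The peak of Platr30 at -1389 bp, the nearest to that gene's start, had 119 and 127 counts in NT, 56.1 and 111 at 0.5 h, 36.8 and 56.4 at 2 h and 31.1 and 23.6 at 24 h (log2 fold change at 2 h -1.38 ± 0.25 SE, edgeR adjusted p = 9e-05). The peak of Platr3 at 7876 bp had 99 and 108 in NT, 45.5 and 78.1 at 0.5 h, 54.7 and 52.2 at 2 h and 20.4 and 34.9 at 24 h (edgeR adjusted p = 0.00321 at 2 h). In both, the 24 h libraries were below the 2 h ones, whereas those of the Platr28 peak overlapped. At 0.5 h, the Platr3 call (edgeR adjusted p = 0.0418) did not hold without 0.5 h replicate 1 or either NT library, and the Platr28 call did not hold without 0.5 h replicate 1. The Platr30 peak did not pass at 0.5 h (edgeR adjusted p = 0.193), but did with the replicate block (edgeR adjusted p = 0.0084).

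Platr9 and Platr10 each lost several peaks, first called at different times. Near Platr9, the exonic peak at 5110 bp went from 129 and 112 counts in NT to 62.2 and 66.3 at 2 h, and the intronic peak at 8821 bp from 48.6 and 43.9 to 13.4 and 21.9 at 0.5 h and 10.4 and 14.1 at 2 h. Near Platr10, the intronic peak at 5008 bp went from 451 and 474 to 323 and 269 at 2 h (63.9% of NT, edgeR adjusted p = 0.00259, not called without 2 h replicate 2). At both genes the start peak was lost as well, first at 1 h for Platr9 and at 2 h for Platr10. The Platr10 start peak was not called at 6 h, and its 2 h call held in 1 of 4 refits without a library. The Platr9 peak at 5110 bp (53.3% of NT at 2 h, edgeR adjusted p = 0.000812) was not called without NT replicate 1. The Platr9 peak at 8821 bp fell to 26.4% of NT at 2 h (edgeR adjusted p = 8.63e-05) after 38.1% at 0.5 h (edgeR adjusted p = 0.00672, not called without replicate 1 of 0.5 h or of NT).

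The remaining nearby peaks of the 8 were at Platr6, Platr32 and Platr29. The Platr6 peak at -951 bp had 293 and 282 counts in NT, 191 and 174 at 2 h and 101 and 89.7 at 24 h. The Platr32 peak at 4400 bp, in an intron, had 201 and 190 in NT, 121 and 123 at 2 h and 77.6 and 64.2 at 24 h. The Platr29 peak at 9548 bp had 142 and 129 in NT, 87.7 and 90.3 at 2 h and 92.2 and 67 at 24 h. Platr6 and Platr32 stood at 33.1% and 36.3% of NT at 24 h, with every 24 h library below the 2 h ones. Their 2 h calls (edgeR adjusted p = 0.00355 and 0.00401) did not hold without NT replicate 1, nor that of Platr6 without 2 h replicate 2. The 2 h call of Platr29 (edgeR adjusted p = 0.0303) was lost whichever of the 4 libraries was left out.

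Few Platr peaks opened. The peak of Platr26 at 7995 bp, named here after its values were seen, rose from 48.6 and 36.8 counts in NT to 74.5 and 63 at 2 h, 141 and 93.8 at 6 h and 239 and 159 at 24 h (465% of NT, edgeR adjusted p = 1.3e-08), and its 6 and 24 h calls held without any 1 library. It rose while the start peak of the same gene and its intronic peak at 6249 bp fell. The other gains were smaller, likewise named after their values were seen: Platr32 at -931 bp (195 and 173 in NT, 334 and 262 at 24 h), Platr17 at -605 bp (60.8 and 73.6, then 98 and 97.3) and Platr12 at -9258 bp (46.9 and 25.5, then 64 and 61.4). Each of these 3 lost its 24 h call in at least 2 of 4 refits without a library.

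**Figure D3:**
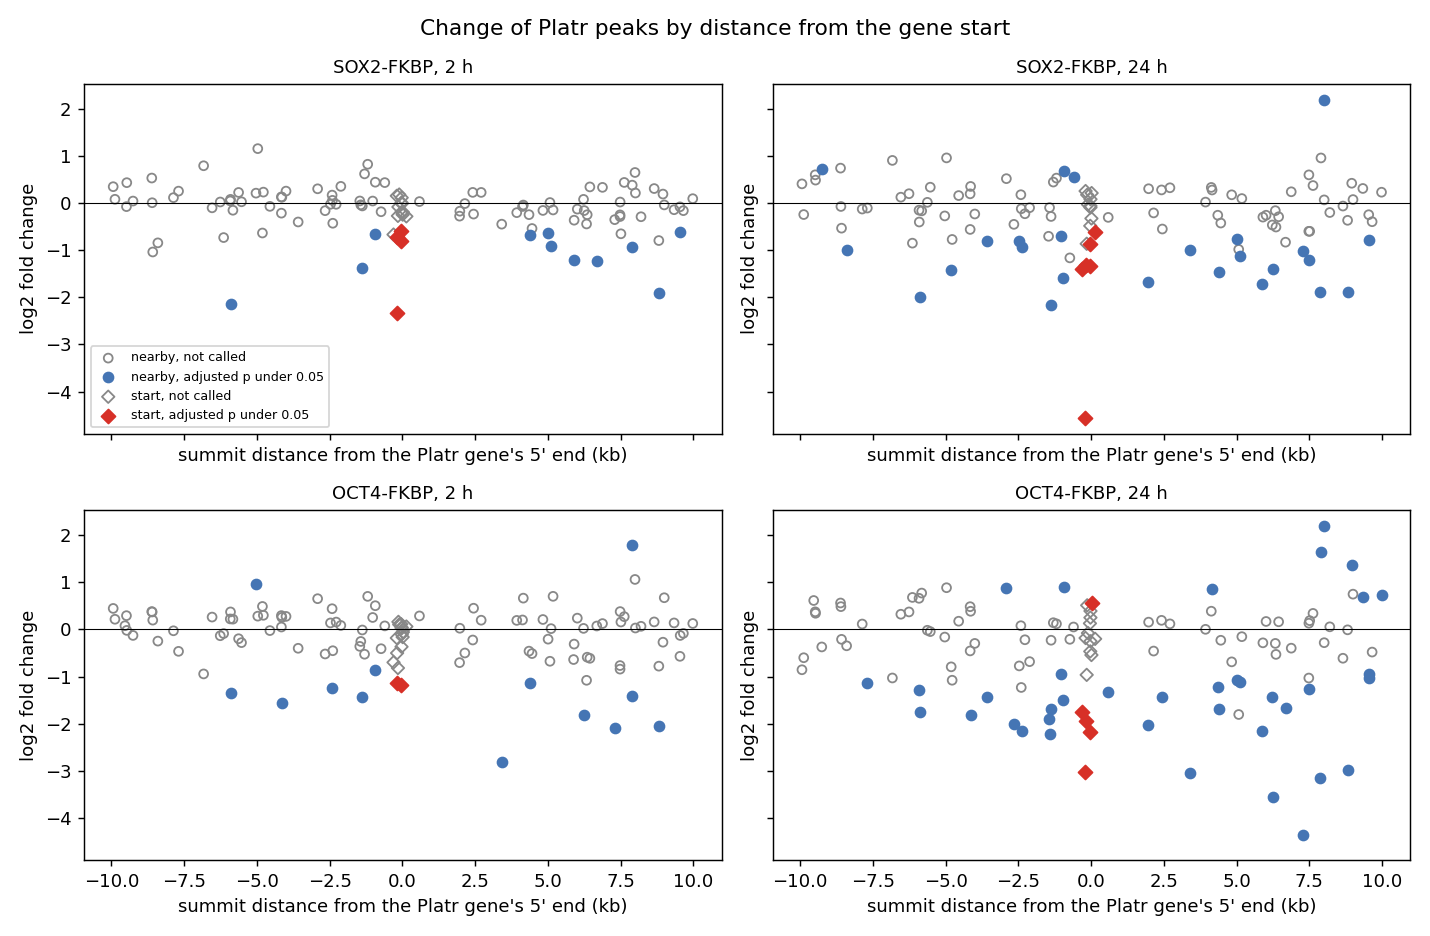
Log2 fold change against NT (vertical axes) of each tested Platr peak by the distance of its summit from the gene's 5′ end in kb, at 2 and 24 h of SOX2 and OCT4 depletion. Diamonds are start peaks, circles nearby peaks, and filled symbols passed an adjusted p of 0.05. Lost peaks lay between -8404 and 9548 bp at 24 h of SOX2 depletion and between -7693 and 9548 bp at 24 h of OCT4 depletion.

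OCT4 depletion closed Platr peaks as well, with a start peak called lost at 5 genes and nearby peaks at more. The Platr28 start peak, 1 of these 5, had few counts. Its call held in 1 of 4 refits without a library and did not hold by DESeq2. Of the 120 peaks, 118 were tested in the fit of the 3 lines together. At 2 h, 13 were lost (11%) beside 5.1% of all peaks tested, and 2 were gained beside 1.92%. At 6 h, 20 were lost (16.9%) beside 7.97%, and 5 gained (4.24%) beside 4.12%. At 24 h, 34 were lost (28.8%) beside 12.7%, and 9 gained (7.63%) beside 10.8%. The shares lost were above the background at all 3 times, and those gained were near it. The median log2 fold change of Platr peaks was 0.00 at 2 h, -0.14 at 6 h and -0.28 at 24 h, where that of all peaks was 0.02, 0.01 and -0.01. Leaving out replicate 1 of 2 h left 7 Platr peaks lost at 2 h, and leaving out NT replicate 2 left 12 at 6 h. All OCT4 times share their 2 NT libraries. Over all times 36 Platr peaks at 20 genes were lost, 15 of them first at 24 h. Of the other 21, 19 were called at every later time, which was not counted over all peaks. Among the 155681 peaks tested for both SOX2 and OCT4, 21820 were lost at 1 or more OCT4 times.

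Of the start peaks lost with SOX2, those of Platr11, Platr9, Platr26 and Platr8 were lost with OCT4 too. The Platr11 start peak had 510 and 411 normalized counts in OCT4-FKBP NT cells, 202 and 218 at 2 h, 127 and 155 at 6 h and 55.1 and 58.7 at 24 h. The Platr9 start peak had 248 and 334 in NT, 106 and 149 at 2 h and 27.5 and 102 at 24 h. Both were lost at 2 h, at 45.6% and 43.8% of NT (edgeR adjusted p = 0.000658 and 0.00267), and the Platr9 call did not hold without 2 h replicate 1 or NT replicate 2.

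The Platr26 start peak fell from 355 and 341 to 202 and 195 at 6 h and 76.8 and 104 at 24 h, and that of Platr8 from 182 and 187 to 93.7 and 97.9 at 6 h and 72.5 and 37.1 at 24 h. They were lost at 6 h (57.1% and 51.9% of NT, edgeR adjusted p = 0.00675 and 0.00636) and 24 h (25.9% and 29.7%). At 2 h they stood at 70.8% and 61.6% of NT and were not called (edgeR adjusted p = 0.194 and 0.0877). With the replicate block, a pairing that is not established, both were called lost at 2 h (edgeR adjusted p = 0.0194 and 0.00416). The 6 h calls did not hold without 6 h replicate 2 for Platr26, or without 6 h replicate 1 or NT replicate 2 for Platr8.

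Platr10 and Platr12, whose start peaks fell with SOX2, were not called with OCT4. The Platr10 start peak had 82.6 and 130 counts in OCT4-FKBP NT cells and 116 and 119 at 24 h, and that of Platr12 had 188 and 230 in NT and 188 and 176 at 24 h. The difference between the lines at 24 h did not pass for either (0.98 ± 0.33 on the log2 scale for Platr10, edgeR adjusted p = 0.104, and 0.38 ± 0.33 for Platr12, edgeR adjusted p = 0.671). With the replicate block that of Platr10 passed (edgeR adjusted p = 0.0207). The Platr28 start peak was called lost at 6 h (7.79 and 14.9 counts in NT, 3.67 and 3.52 at 6 h, edgeR adjusted p = 0.0235), but not at 24 h. This call did not hold by DESeq2, nor without NT replicate 2 or either 6 h library.

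Platr25 was the single start peak gained with OCT4, with 167 and 131 counts in NT and 233 and 205 at 24 h (147% of NT, edgeR adjusted p = 0.0411), a call lost without 24 h replicate 1 or NT replicate 2. Platr25 is annotated as protein coding and this peak also lies at Mir713. The Platr23 start peak, shared with the start of Zfp281, had 350 and 301 in NT and 536 and 391 at 24 h (edgeR adjusted p = 0.0847, called gained by DESeq2). By edgeR, 51.6% of protein-coding and 29.6% of other long non-coding start peaks were gained at 24 h, beside 10.8% of all peaks tested.

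The largest OCT4 falls at 2 h were at nearby peaks. The intronic Platr31 peak at 3414 bp had 150 and 211 counts in NT, 20.2 and 30.5 at 2 h and 8.7 and 35.5 at 24 h (14% of NT at 2 h, log2 fold change -2.80 ± 0.33 SE, edgeR adjusted p = 1.45e-07). The Platr10 peak at 7298 bp, in an exon, had 239 and 165 in NT, 45.9 and 48.5 at 2 h and 5.8 and 13.9 at 24 h, when 4.87% of NT remained. It is nearby by the gene's 5′ end, but its summit lies within 500 bp of the 5′ end of another annotated Platr10 transcript. The Platr9 peak at 8821 bp had 67 and 97.8 in NT, 18.4 and 21.1 at 2 h and 10.2 and 10.8 at 24 h. The Platr26 peak at 6249 bp had 104 and 92 in NT, 31.2 and 24.9 at 2 h and 5.8 and 10.8 at 24 h. In these 4 peaks every treated library was below both NT libraries, and the calls at 2, 6 and 24 h held without any 1 library. At 2 h the naming rule itself asked for treated libraries below the NT mean. The log2 fold changes of the 4 peaks at 2 h ranged from -2.80 to -1.81.

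The nearby peaks that headed the SOX2 falls also closed with OCT4. The Platr28 peak at -5875 bp had 117 and 164 counts in NT, 56 and 55.4 at 2 h and 30.4 and 54.1 at 24 h (edgeR adjusted p = 0.000452 at 2 h). The Platr30 peak at -1389 bp had 99.8 and 145 in NT, 31.2 and 58.5 at 2 h and 34.8 and 41.7 at 24 h (edgeR adjusted p = 0.000765 at 2 h, not called without 2 h replicate 1 or NT replicate 2). The Platr3 peak at 7876 bp had 73.3 and 100 in NT, 23 and 41 at 2 h, 13.5 and 14.1 at 6 h and 7.25 and 12.4 at 24 h (edgeR adjusted p = 2.21e-08 at 24 h). At 24 h the Platr3 peak stood at 11.3% of NT, and those of Platr28 and Platr30 at 30% and 31.2%.

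Of the 9 Platr peaks gained at 24 h of OCT4 depletion, the Platr26 peak at 7995 bp rose most, from 14.8 and 17.6 counts in NT to 52.2 and 98.9 (467% of NT, edgeR adjusted p = 3.24e-05). It was the 1 gain at 24 h that held without any 1 library. A pair of nearby peaks, named after their values were seen, opened by 2 h: Platr19 at -5031 bp (27.3 and 32.4 in NT, 64.3 and 53.5 at 2 h, 29 and 24.7 at 24 h) and Platr7 at 7899 bp (4.68 and 4.25 in NT, 17.4 and 14.3 at 2 h, 22.6 and 28.1 at 6 h). Neither 2 h call held without 2 h replicate 1 or either NT library. The Platr19 peak stood at 89.9% of NT at 24 h.

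After NANOG depletion 1 Platr peak was called, a gain at 24 h. By edgeR and by DESeq2, none was lost at 2, 6 or 24 h, beside 0.938%, 1.08% and 2.25% of all peaks tested. At an unadjusted p under 0.05, 2, 2 and 4 of 118 were lower. At 2 and 6 h none was gained by either tool, beside 0.0162% and 0.0367% of all peaks, with 5 and 4 higher at an unadjusted p under 0.05. At 24 h, 1 was gained, beside 0.288%. Few peaks of any kind were called in this line, so the counts of 0 do not set Platr peaks apart. The median log2 fold change of Platr peaks was 0.03, 0.12 and 0.17 at 2, 6 and 24 h, against 0.00, 0.02 and 0.03 over all peaks. Single Platr peaks ranged from -1.57 to 1.35 at 24 h, so the lack of calls is not a lack of change.

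The Platr11 start peak, for example, had 373 and 340 counts in NANOG-FKBP NT cells, 280, 366 and 253 at 2 h and 258, 362 and 247 at 24 h. At 2 and 24 h its groups overlapped only through the shallow libraries numbered 2 (366 and 362), and the other treated libraries lay below both NT libraries. Its log2 fold change at 24 h was -0.34 ± 0.22 (SE, edgeR adjusted p = 0.617). The peak that was gained at 24 h was the Platr29 peak at 9548 bp, with 106 and 60 in NT and 142, 203 and 147 at 24 h (edgeR adjusted p = 0.0416). This call was lost without NT replicate 2 or any of the 3 libraries of 24 h. The same peak was lost at 24 h with SOX2 (142 and 129 to 92.2 and 67) and with OCT4 (106 and 104 to 34.8 and 68). The SOX2 call did not hold without 24 h replicate 2 or NT replicate 1, nor the OCT4 call without 24 h replicate 1.

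**Figure D4:**
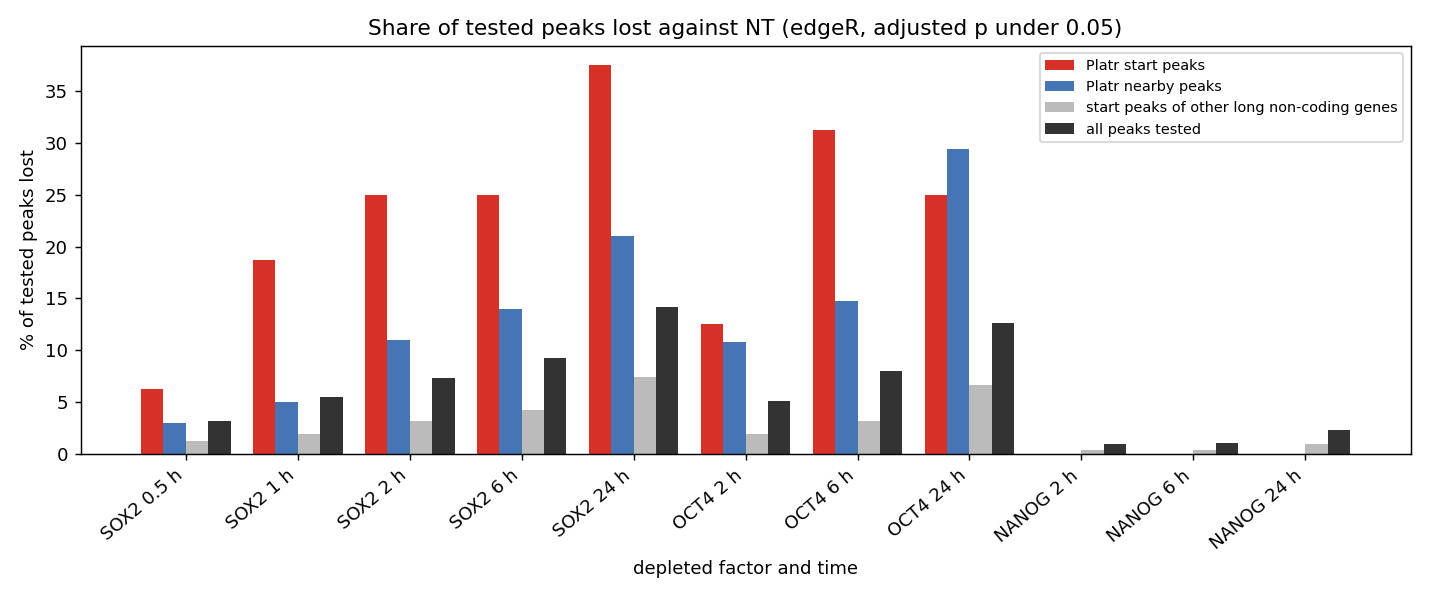
Percent of tested peaks lost against NT (bars, from 0; edgeR adjusted p under 0.05) by depleted factor and time, for Platr start peaks, Platr nearby peaks, start peaks of other long non-coding genes and all peaks tested. With OCT4 at 24 h the bars stand at 25%, 29.4%, 6.63% and 12.7%, and with NANOG no Platr peak was lost.

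The Platr peaks lost with SOX2 and with OCT4 overlapped in part. At 2 h, 8 peaks were lost in both lines, 53.3% of the 15 lost with SOX2 and 61.5% of the 13 lost with OCT4. Over all 155681 peaks tested in both fits, the peaks lost with both made up 41% of those lost with SOX2 and 62.4% of those lost with OCT4. At 24 h, 22 Platr peaks were lost in both, 81.5% of 27 and 64.7% of 34, where all peaks gave 54.9% and 62.8%. Over all times, 23 Platr peaks were lost with both factors (79.3% of 29 and 63.9% of 36, where all peaks gave 56.8% and 62.9%), 42 with either and 78 with neither. As a share of the OCT4 losses the overlap was near that of all peaks. Across the 116 peaks tested in both lines, the log2 fold changes correlated with a Pearson r of 0.504 (Spearman rho 0.491) at 2 h and 0.739 (0.740) at 24 h. SOX2 and NANOG changes at 2 h gave 0.139 (0.0895). Over all peaks tested in both fits the same 3 pairs gave 0.380 (0.234), 0.577 (0.511) and 0.181 (0.131). These are descriptions across peaks, which share libraries, genes and depth within a line and are not independent replicates.

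A loss in one line and not in another is no difference until tested. By the interaction in the fit of the 3 lines, the OCT4 and SOX2 changes at 2 h differed for 3 Platr peaks, beside 1.57% of all peaks. These were Platr31 at 3414 bp (log2 fold change -2.80 with OCT4 and -0.38 with SOX2, difference -2.43, edgeR adjusted p = 0.00365), Platr10 at 7298 bp (difference -1.81, edgeR adjusted p = 0.014) and Platr26 at 6249 bp (difference -1.72, edgeR adjusted p = 0.00541). All 3 fell more with OCT4. In SOX2-FKBP cells the Platr10 peak went from 212 and 188 to 189 and 128 at 2 h, and the Platr26 peak from 69.5 and 65.1 to 62.2 and 58.8. Both were lost with SOX2 by 6 h, with 62.1% and 62.3% of NT left, though neither 6 h call held without NT replicate 1 or 6 h replicate 2, nor that of Platr26 without NT replicate 2.

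The Platr31 peak started from different levels, with 51.2 and 41.1 counts in SOX2-FKBP NT cells, 150 and 211 in OCT4-FKBP and 116 and 90 in NANOG-FKBP NT cells. The SOX2 values are scaled within their own fit. Levels at other Platr starts differed between NT lines as well. The Platr16 start peak had 47.5 and 81.9 counts in OCT4-FKBP and 190 and 186 in NANOG-FKBP NT cells, which share 1 scale.

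At 24 h, 5 Platr peaks differed between OCT4 and SOX2, beside 2.77% of all peaks. The same 3 nearby peaks were among them, with the largest difference at Platr10 at 7298 bp (-3.37, edgeR adjusted p = 0.000208). The Platr7 peak at -1429 bp, named after its values were seen, was lost with OCT4 and not called with SOX2: 186 and 248 counts in NT, 113 and 156 at 6 h and 50.7 and 43.2 at 24 h, against 295 and 326 in SOX2-FKBP NT cells and 302 and 277 at 24 h (difference -2.15, edgeR adjusted p = 7.25e-05). The Platr11 start peak was the one that fell less with OCT4 than with SOX2 (-3.01 and -4.52, difference 1.50, edgeR adjusted p = 0.0464). At 2 h its difference was 1.14 ± 0.34 (SE) and did not pass (edgeR adjusted p = 0.0809), but did with the replicate block (edgeR adjusted p = 0.00193).

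Between NANOG and SOX2, the 2 h change differed for 3 Platr peaks, beside 1.75% of all peaks. These were the Platr11 start peak (-0.29 with NANOG and -2.27 with SOX2, difference 1.98, edgeR adjusted p = 0.000365), Platr28 at -5875 bp (0.05 and -2.08, difference 2.13, edgeR adjusted p = 0.000482) and Platr31 at 6681 bp (difference 1.94, edgeR adjusted p = 0.0307). The last of these, named after its values were seen, had 20 and 29.7 counts in SOX2-FKBP NT cells and 10.4 and 9.95 at 2 h, against 30.7 and 19 and then 42.5, 43.5 and 43.4 in NANOG-FKBP cells. Its SOX2 call at 2 h held in 1 of 4 refits, being lost without NT replicate 2 or either 2 h library. The differences between lines were not refit without a library.

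**Figure D5:**
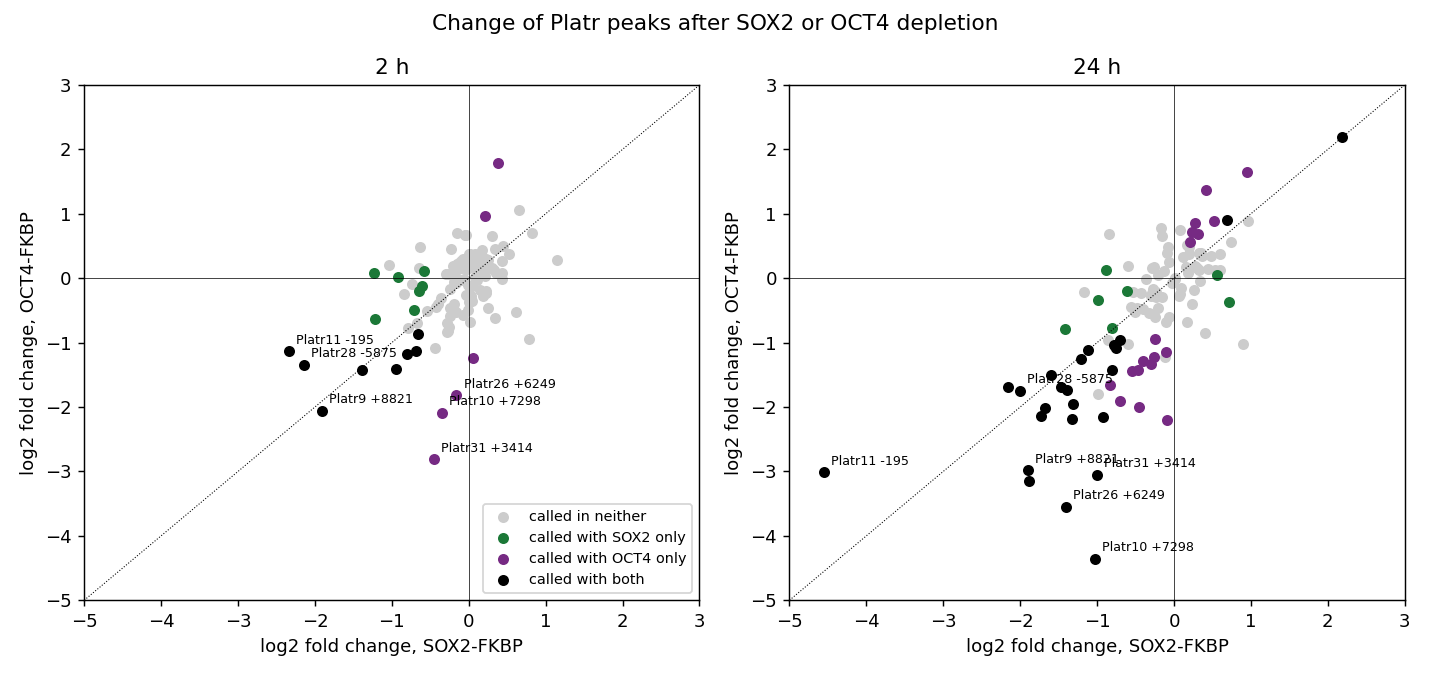
Log2 fold change with OCT4 (vertical axis) against that with SOX2 (horizontal axis) for each Platr peak tested in both lines, at 2 h and 24 h, coloured by the line in which it was called (adjusted p under 0.05). At 2 h the Platr31 peak at 3414 bp, the Platr10 peak at 7298 bp and the Platr26 peak at 6249 bp lie far below the diagonal, and the Platr11 start peak above it.

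The letters searched were about as common around Platr summits as around all summits. An exact SOX match was present in 11.7% of Platr peaks and 14.5% of all peaks of the chromosomes, the octamer in 3.33% and 2.63%, the composite core in 1.67% and 1.27%, ESRRB in 4.17% and 3.35% and KLF in 15.8% and 17%. Both Platr peaks with an exact composite core, the Platr11 start peak and the Platr13 peak at -4140 bp, were lost at 2 h of OCT4 depletion, as were 39.7% of the 2135 tested peaks of any kind that hold it. The Platr13 peak had 28.8 and 29.8 counts in OCT4-FKBP NT cells and 7.35 and 11.8 at 2 h (edgeR adjusted p = 0.0089, not without 2 h replicate 1 or NT replicate 2), and it was not tested in the SOX2 fit. Of the 4 Platr peaks with an exact octamer, 0 were lost at 2 h with either factor, where 16.9% of all tested peaks with the octamer were lost with SOX2 and 24.1% with OCT4. At 24 h, 2 of the 4 were lost with OCT4 and 1 with SOX2. Of all tested peaks with the octamer, 1482 were lost at 24 h with OCT4 and 2948 were not. With SOX2 these counts were 1147 and 3249. Over all peaks tested, with the octamer or without it, 12.7% were lost with OCT4 and 14.1% with SOX2. The 2 OCT4 calls of Platr peaks held in 0 and 1 of 4 refits without a library, and the SOX2 call in 3.

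With up to 1 mismatch, a setting chosen after the data were seen, the octamer was found in 25% of Platr peaks and 22.5% of all peaks. It was present in 41.2% of the 34 Platr peaks lost at 24 h of OCT4 depletion and 17.9% of the 84 tested but not lost, where all peaks gave 39.1% and 20%. The composite core with up to 1 mismatch was in 20.6% of the same lost and 17.9% of the other Platr peaks, against 31.2% and 16.4% over all peaks. Exact SOX letters were in 7.41% of the 27 Platr peaks lost at 24 h of SOX2 depletion and 13.5% of the 89 not lost, against 24.8% and 12.3% over all peaks. The composite core with up to 1 mismatch overlaps the octamer in its last letters and was in 19.2% of Platr peaks and 18.4% of all. Platr peaks were 712 bp wide in the median, start peaks 1438 bp and all peaks 635.5 bp, with a GC share of 49.8% against 51% in the 300 bases.

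The 10 kb limit cut through a continuous range of distances. Just inside it, the peaks of Platr3 at 9980 bp, Platr26 at -9939 bp and Platr27 at -9878 bp had log2 fold changes of 0.23, 0.41 and -0.24 at 24 h of SOX2 depletion. Just outside it, those of Platr12 at 10011 bp, Platr6 at 10145 bp and Platr32 at -10244 bp had -1.13, -1.09 and 0.22. The peak of Platr11 at -10034 bp was not tested. Of the Platr peaks, 10 lay within 500 bp of another gene's start, and without them 15 of 106 were lost at 2 h of SOX2 depletion and 13 of 108 at 2 h of OCT4 depletion.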

How the data were processed

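The authors aligned paired-end ATACseq reads to mm10 with bwa mem 0.7.17-r1188, filtered them with samtools 1.10, removed duplicates with Picard 2.12.0, called peaks with MACS2 on merged libraries, separately for the SOX2-FKBP time course and for the 3 lines, and tallied fragments per peak. A single peak list is deposited, and which of these calls it holds is not given in the sources used here. Raw counts of 31 libraries are deposited. The other 14 of the 45 samples were not analysed here. The peak list gives the authors' fold enrichment (a ratio) and −log10 q-value for merged libraries, which were not used for comparisons.

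The edgeR package (4.0.16, under R 4.3.3) was used with TMM scaling, glmQLFit and glmQLFTest. The SOX2-FKBP libraries formed 1 fit (12 libraries, 160432 peaks, each above 10 counts in more than 2 of them). NT, 2, 6 and 24 h of the 3 lines formed another (27 libraries, 166430 peaks, each above 10 counts in more than 6). Each time was compared with NT of its line. Normalized counts are scaled within a fit, SOX2 values in the first and the others in the second. A standard error is the fold change divided by the square root of F. Both fits were tested on simulated data. DESeq2 1.42.0 was an alternative.

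Replicates differed beyond sampling noise (chi-square per degree of freedom 1.25 to 9.68 in 20 pairs).

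Platr peaks, gene lists and the naming rule were chosen with earlier results of these data known. Values are given for every start peak and for nearby peaks with the largest changes at 2 h (8 falls and 3 rises with SOX2, 4 falls with OCT4, 3 with NANOG, adjusted p under 0.05 and mean at least 50). No SOX2 rise and no NANOG fall met this. Starts are from GENCODE vM21, and 166 peaks off the chromosomes were left out of motif counts.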

Additional observations from a re-analysis of the deposited data

Results flagged for a closer look

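At 11 Platr peak comparisons, the change after depletion differed between 2 lines by edgeR's interaction test, in log2 units. In each comparison 118 Platr peaks were tested. Of all peaks tested, the OCT4 and SOX2 changes differed at 1.57% at 2 h and 2.77% at 24 h. For NANOG and SOX2 the share was 1.75% at 2 h. At 2 h, OCT4 minus SOX2 was -2.43 at the Platr31 peak at 3414 bp, -1.81 at the Platr10 peak at 7298 bp and -1.72 at the Platr26 peak at 6249 bp. At 24 h the same difference was -2.10, -3.37 and -2.18 at these peaks, -2.15 at the Platr7 peak at -1429 bp and 1.50 at the Platr11 start peak. NANOG minus SOX2 at 2 h was 1.98 at the Platr11 start peak, 2.13 at the Platr28 peak at -5875 bp and 1.94 at the Platr31 peak at 6681 bp. The SOX2 call of this Platr31 peak at 2 h held in 1 of 4 refits, and no difference was refit without a library. The Platr31 peak at 3414 bp also differed in its NT level between the lines, and the part of this in its difference was not tested. OCT4-FKBP cells come from another parental line and laboratory, which cannot be told apart from the factor.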

How the results depend on the processing

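No result reversed. Among alternative values of counts and shares, 314 stayed within 1.5 times the main value, and 65 moved further. For named peaks, 1103 alternative values stayed called or stayed uncalled, 104 fell out of the threshold and 40 came inside it. The direction was checked only where a value was called. The labels tie the replicate numbers to no batch or culture, and the groups of a line share only 2 numbers in SOX2-FKBP and OCT4-FKBP. Deviations of libraries with the same number correlated by 0.124 to 0.519 in SOX2-FKBP and 0.352 to 0.612 in OCT4-FKBP. This was over peaks with a mean of at least 50, a limit chosen after the data were seen. Over all peaks tested the correlations began at 0.0794 and 0.149. In NANOG-FKBP the treated groups share 3 numbers and correlated by 0.404 to 0.493 over peaks of that mean. NT and treated NANOG-FKBP groups correlated by -0.0158 to 0.107. The pairing is therefore not established, and the main fits hold no term for it. With the replicate block, 7 Platr peaks were lost and 1 gained at 0.5 h of SOX2 depletion, 13 lost at 1 h, and 3, 6 and 10 gained at 2, 6 and 24 h. With the same block 6 and 8 were gained at 2 and 6 h of OCT4 depletion. In NANOG-FKBP it gave 1 gain at 6 h, 1 loss and 5 gains at 24 h, and the differing peaks were 9 (OCT4 against SOX2, 24 h) and 8 (NANOG against SOX2). Among start peaks the block gave 2 lost at 0.5 h of SOX2 depletion, and 4 lost at 2 h and 2 gained at 24 h of OCT4 depletion. With the block edgeR also called Platr26 and Platr8 lost at 2 h of OCT4 depletion (adjusted p = 0.0194 and 0.00416), Platr8 lost at 2 h (0.00141), Platr26 at 0.5 h (0.0132), Platr27 at 24 h (0.0109) and Platr10 at 1 and 6 h (0.0326 and 0.0207) of SOX2 depletion, and Platr23 gained at 24 h of OCT4 depletion (0.00738). The OCT4 and SOX2 changes then differed for Platr11 at 2 h (1.16, adjusted p = 0.00193) and Platr10 at 24 h (0.98, adjusted p = 0.0207), all start peaks, and the Platr30 peak at -1389 bp was called at 0.5 h (0.0084). DESeq2's test gave 2 and 5 lost at 0.5 and 1 h, and 1 and 2 gained at 6 and 24 h of SOX2 depletion. Fitting only the groups compared gave 8 lost at 0.5 h and 2 gained at 2 h for SOX2, 3 and 5 gained at 6 and 24 h for OCT4 and 0 gained at 24 h for NANOG. Scaling by total counts gave 1 gained at 2 h for SOX2, 5 at 24 h for OCT4 and 1 lost and 0 gained at 24 h for NANOG, and it moved the median of all peaks at 24 h of OCT4 depletion from -0.01 to -0.14 (log2). Without the treated NANOG-FKBP libraries numbered 2, chosen after seeing the data, 1 was lost and 0 gained at 24 h.

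A 5 kb window gave 1.69% lost at 0.5 h for SOX2 and 0% gained at 2 h for OCT4 and 24 h for NANOG. Among start peaks, RefSeq starts (chosen after seeing the data) gave 0% lost at 0.5 h of SOX2 and 0% gained at 24 h of OCT4 depletion. A wider start window (1 kb) gave 9.52% gained at 6 and 24 h for SOX2 and 24 h for OCT4, and peaks that hold the 5′ end gave 5.26% for SOX2 and 10.5% for OCT4.

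Leaving out 1 library gave 1 to 5, 4 to 8, 9 to 12, 12 to 14 and 20 to 26 lost at 0.5, 1, 2, 6 and 24 h of SOX2, and 0 to 1, 1 to 2 and 1 to 3 gained at 0.5, 6 and 24 h. For OCT4 it gave 7 to 12, 12 to 20 and 26 to 34 lost and 0 to 2, 3 to 4 and 4 to 7 gained at 2, 6 and 24 h, and for NANOG 0 to 1 lost and 0 to 1 gained at 24 h. The calls kept in every such refit were 1 of 4, 3 of 8, 6 of 15, 10 of 18 and 17 of 27 losses for SOX2 and 7 of 13, 11 of 20 and 24 of 34 for OCT4. A left-out library leaves 1 in its group, assumed to vary like the others. With 2 libraries a group, peaks of few counts, such as the Platr28 start peak, allow no small change to be seen. The causes of these shifts were not tested.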

Other observations

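Of 19 start peaks of pluripotency genes, 4 were lost at 2 h of SOX2 depletion: Lefty1 (log2 fold change -1.08, edgeR adjusted p = 1.71e-05), Klf2 (-0.62, adjusted p = 0.00988), Fbxo15 (-0.52, adjusted p = 0.0143) and Nanog (-0.49, adjusted p = 0.0445). At 24 h of OCT4 depletion Tcl1 (-2.14), Nanog (-1.21), Lefty1 (-1.07) and Dppa3 (-1.04) were lost, and Tfcp2l1 (0.88), Klf5 (0.62) and Klf4 (0.57) were gained. Of all peaks tested, 7.28% were lost at 2 h of SOX2 depletion. At 24 h of OCT4 depletion 12.7% were lost and 10.8% gained. Gains at that OCT4 time were called at 51.6% of protein-coding start peaks, so a gain does not set these 3 genes apart. Klf4, Klf5 and Tfcp2l1 encode factors of the naive state, as does Klf2, whose start peak stood at -0.20 at 24 h of SOX2 depletion (edgeR adjusted p = 0.427).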
